A study of Mus musculus with 18 samples.

Results

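The small leucine-rich proteoglycan genes were followed with age in mouse hindlimb muscle, in animals of 2, 20 or 28 months. The group was chosen by name and held 10 genes of the 23420 gene rows in the muscle RNA-seq table: Dcn, Bgn, Aspn, Fmod, Lum, Prelp, Kera, Omd, Ogn and Podn. All 10 passed the filter for testing (a mean of 10 normalized counts over the libraries), as did 13178 genes in all. The animals were female C57BL/6J mice with no added allele or agent, and 3 mice were used at each age. RNA-seq libraries were made from poly-A RNA of each mouse singly, which gave 9 libraries, and the numbers at the end of the labels name the replicates. For MBD-seq, in which fragments with methylated CpGs are captured by a methyl-CpG-binding domain and sequenced, the DNA of the 3 mice of an age was pooled, so there was 1 muscle and 1 spleen T-cell column per age. The samples are called 2-m, 20-m and 28-m muscles below.

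Small leucine-rich proteoglycans are secreted proteins with a core of leucine-rich repeats, and several of them carry chondroitin, dermatan or keratan sulfate chains. They bind the surface of collagen fibrils, where they govern fibril diameter and spacing, and decorin and biglycan also bind growth factors such as TGF-β. In muscle they are made largely by fibroblasts of the connective tissue sheaths and by tendon cells, not by the muscle fibres. In a bulk sample, fewer cells of a type and less RNA per cell cannot be told apart. Decorin (Dcn), biglycan (Bgn) and asporin (Aspn) form class I. Fibromodulin (Fmod), lumican (Lum), PRELP (Prelp), keratocan (Kera) and osteomodulin (Omd) form class II. Osteoglycin (Ogn) belongs to class III and podocan (Podn) to class V.

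The genes lie in small clusters in the mouse genome (GRCm38). On the plus strand of chromosome 10 stand Dcn (chr10:97479500-97518163), Lum (chr10:97565501-97572703) and Kera (chr10:97606962-97613688), together within 134.2 kb. On the plus strand of chromosome 13, Aspn (chr13:49544443-49567565), Omd (chr13:49582462-49592612) and Ogn (chr13:49608015-49624501) span 80.06 kb. All 3 of these sit inside Cenpp, a centromere protein gene on the opposite strand. Of the Aspn exons, 275 bases (11.68%) overlap exons of Cenpp, whose mean normalized counts were 21.6, 26.9 and 38.9 at the 3 ages. Reads of the overlap cannot be assigned without strand, and the strand setting of the counting is not given in the sources used here. On chromosome 1, Prelp (chr1:133910304-133930102, minus strand) and Fmod (chr1:134037254-134048280, plus strand) lie 107.2 kb apart. Bgn (chrX:73483601-73495936, plus strand) and Podn (chr4:108014793-108031954, minus strand) stand alone. Within the chromosome 10 cluster limma on all libraries called Kera lower with age but neither Dcn nor Lum, which some other fits called, and the difference between these genes was not tested.

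The 250 bases before the transcription start, from the RefSeq promoter table on GRCm38, are given for the 3 genes that fell in 20-m muscles and for Aspn and Ogn, whose promoter capture differed most between 28-m and 2-m muscles in each direction. They are written 5′ to 3′ on the strand of the gene, and capitals mark CpG dinucleotides, the sites that MBD capture reads out when methylated. The windows are chr10:97606955-97607204 for Kera, chrX:73483351-73483600 for Bgn, chr4:108031955-108032204 for Podn, chr13:49544193-49544442 for Aspn and chr13:49607765-49608014 for Ogn. The Kera window precedes the start of the reference transcript, and a predicted transcript starts within it, at the first base of the gene span given above.
Kera: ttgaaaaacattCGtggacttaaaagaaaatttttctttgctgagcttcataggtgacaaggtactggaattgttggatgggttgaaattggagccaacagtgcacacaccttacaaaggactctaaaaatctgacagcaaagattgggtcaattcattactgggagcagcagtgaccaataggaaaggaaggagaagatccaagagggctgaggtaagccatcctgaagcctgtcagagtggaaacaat
Bgn: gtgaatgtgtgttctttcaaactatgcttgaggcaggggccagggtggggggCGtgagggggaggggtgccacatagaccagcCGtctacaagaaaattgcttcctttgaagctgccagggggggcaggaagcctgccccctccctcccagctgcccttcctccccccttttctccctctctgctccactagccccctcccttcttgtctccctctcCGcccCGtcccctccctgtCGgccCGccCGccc
Podn: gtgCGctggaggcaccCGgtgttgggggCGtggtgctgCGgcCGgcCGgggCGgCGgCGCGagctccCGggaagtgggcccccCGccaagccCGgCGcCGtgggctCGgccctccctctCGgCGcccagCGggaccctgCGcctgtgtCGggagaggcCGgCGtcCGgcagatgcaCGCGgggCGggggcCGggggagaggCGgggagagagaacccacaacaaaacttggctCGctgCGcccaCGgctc
Aspn: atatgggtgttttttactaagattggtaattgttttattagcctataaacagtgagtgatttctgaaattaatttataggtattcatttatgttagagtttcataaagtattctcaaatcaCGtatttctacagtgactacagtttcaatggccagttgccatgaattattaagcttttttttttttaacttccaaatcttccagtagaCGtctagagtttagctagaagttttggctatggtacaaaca
Ogn: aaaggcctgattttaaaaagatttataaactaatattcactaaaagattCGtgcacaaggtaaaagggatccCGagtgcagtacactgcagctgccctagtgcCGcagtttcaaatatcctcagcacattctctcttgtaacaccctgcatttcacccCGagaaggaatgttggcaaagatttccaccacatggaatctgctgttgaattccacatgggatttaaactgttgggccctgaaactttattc
The Kera window held 1 CpG, Aspn 2, Ogn 4, Bgn 7 and Podn 32, where the median over 32851 promoters of this length was 6. A second annotated Podn start had 7 CpGs. Of the others, Prelp had 5, Fmod 2 and Omd 1. Dcn and Lum had no entry in the table. On both strands, the letters CCAAT were found in 3 of the 8 members with an entry (Prelp, Aspn and Kera) and in 33.8% of all promoters. TATAAA was found in Ogn and Aspn and in 12.4% of all promoters, and GGGCGG in Bgn and Podn and in 32.7%. These matches are descriptions of the letters in the window.

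The 9 RNA-seq libraries held 20203833 to 71115244 reads on genes. The 8 skeletal muscle markers were all detected, with a summed level of 4890200 to 6485080 normalized counts per library. The 3 libraries numbered 3 stood apart from the rest, with 8.81 to 10.4% of gene reads on the ribosomal RNA gene Rn45s against 24.0 to 30.4% in libraries numbered 1 or 2. Among the members, the library numbered 3 was the highest of its age for 9 of 10 genes in 2-m, 6 of 10 in 20-m and 10 of 10 in 28-m muscles. Over all tested genes those shares were 33.8, 34.1 and 32.9%. Replicate 2 was the lowest of its age for 8 of the 10 members in 2-m, 8 in 20-m and 6 in 28-m muscles, against 33.3, 33.2 and 35.5% of all tested genes. The results that rest on these libraries are given with and without them. Replicate 1 of the 2-m muscles had a summed level of marrow markers of 5216 normalized counts, against 161 to 421 in the other 8 libraries.

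Levels were compared between genes per kilobase of transcript. In 2-m muscles Dcn was the highest with a mean of 8396 normalized counts per kb, followed by Fmod with 4456 and Bgn with 1685. Then came Prelp (962), Ogn (736), Lum (625), Kera (494) and Aspn (308), with Podn (128) and Omd (47.0) at the low end. The ranges over the 3 libraries overlapped for neighbours in this order except between Bgn and Prelp, Aspn and Podn, and Podn and Omd. In 20-m muscles the first 6 places were held by the same genes, from Dcn (7342 per kb) to Lum (408), and Kera (50.8) stood ninth, above Omd (33.7) with ranges that did not overlap. In 28-m muscles Kera (35.9 per kb) was again ninth, and its range overlapped that of Omd (29.2). The range of Kera thus met those of Lum and Aspn in 2-m muscles and was at or near that of the lowest member at both later ages. Read numbers behind these values ran from 6383 to 27688 per library for Dcn, 23 to 1932 for Kera and 12 to 156 for Omd.

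**Figure D1:**
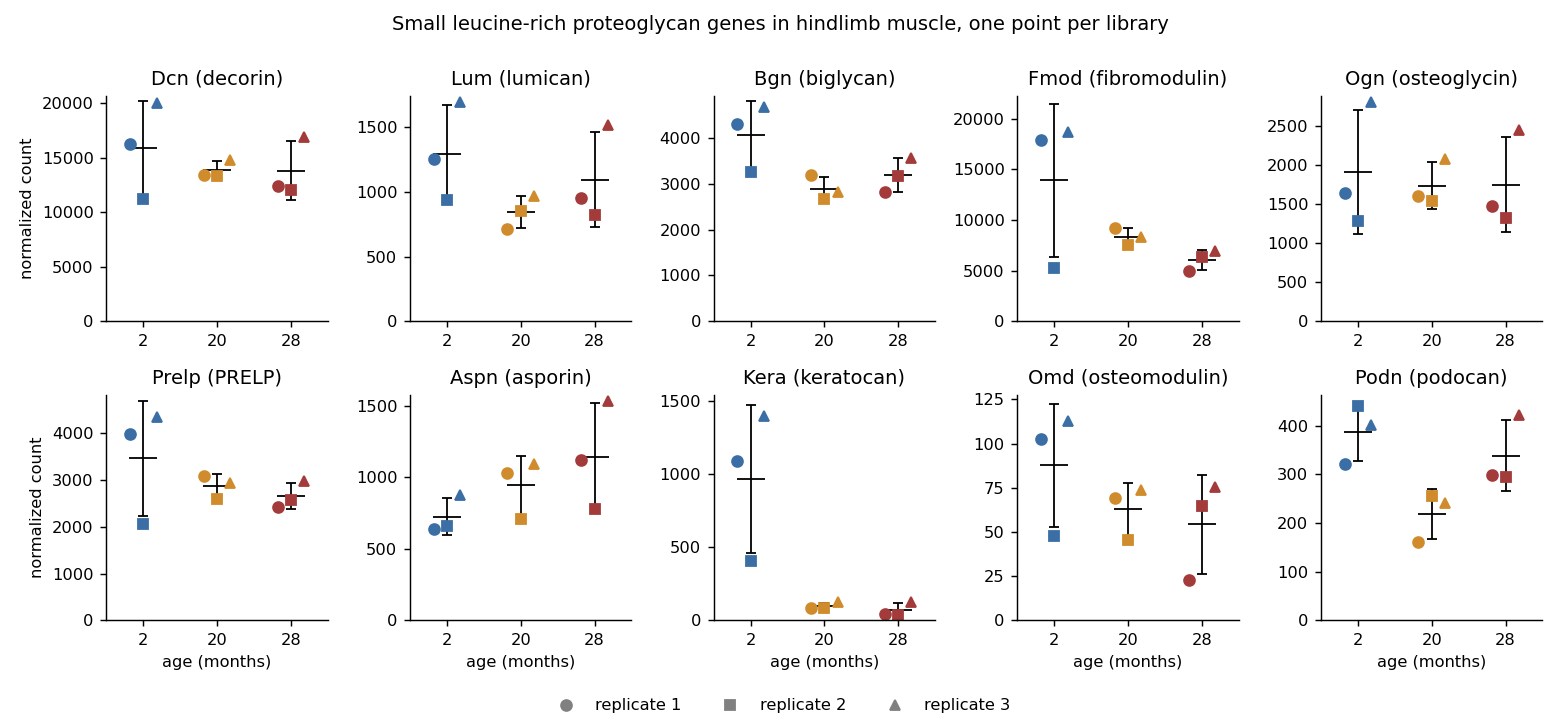
Normalized counts of the 10 genes (vertical axes, each from 0) at 2, 20 and 28 months (horizontal axes), with 1 point per library, the marker shape giving the replicate number and the bar the mean ± SD of 3 libraries. The Kera points of the 20-m and 28-m muscles, from 40.1 to 126, all lie under the lowest 2-m point, 409, and replicate 2 is the lowest 2-m point for 8 genes.

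In 20-m against 2-m muscles, 3 of the 10 genes fell (Kera, Podn and Bgn) and none rose, at an adjusted p under 0.05 in the fit over all tested genes. Over all tested genes 7.13% were called lower and 9.42% higher in this comparison. The log2 fold change was below 0 for 9 of the 10 genes, with a median of -0.45, where 52.1% of all tested genes were below 0 and the median was -0.02. The same 3 genes had groups that did not overlap, all lower, as did 17.6% of all tested genes. Without replicate 2 of the 2-m muscles, 6 genes were called lower, and without the 3 libraries numbered 3 only Kera was. Leaving out any other single library gave 2 or 3 calls. The number called lower among all tested genes moved as well. It was 939 with all libraries, 416 without those numbered 3 and 565 without replicate 1 of the 2-m muscles. With a term for the libraries numbered 3, 4 genes were called lower, Lum being the addition. No gene was higher at an unadjusted p under 0.05 (limma), and edgeR and DESeq2 called none higher either.

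In 28-m against 2-m muscles the limma fit called only Kera lower and none higher, beside 6.24% and 7.53% of all tested genes. Other fits added calls, as edgeR called Fmod lower as well, and DESeq2 and the fit with a term for the libraries numbered 3 called Aspn higher. Kera was also the only gene whose 28-m libraries all lay under the 2-m libraries, as did 15% of all tested genes. Again 9 of 10 log2 fold changes were below 0 (median -0.28, against -0.01 over all tested genes). Without replicate 2 of the 2-m muscles 4 genes were called lower (Kera, Bgn, Fmod and Prelp). At an unadjusted p under 0.05 in limma, Aspn was higher and 3 genes were lower. Both comparisons share the 2-m libraries.

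Between 28-m and 20-m muscles none of the 10 genes was called, beside 0.212% of all tested genes called higher and 0.167% lower. DESeq2 and edgeR on the reads recovered from the table called none either, and Podn alone had an unadjusted p under 0.05 in limma. Groups did not overlap for Fmod, lower, and for Podn, higher, as for 8.84% and 8.63% of all tested genes. With the 6 libraries of 20-m and 28-m muscles set as one group against the 2-m muscles, limma called Kera and Bgn lower and none higher, beside 8.92% and 11.2% of all tested genes. Podn was called lower too by DESeq2, Podn and Fmod by edgeR, and Podn and Lum with the term for the libraries numbered 3, while DESeq2 and that term also called Aspn higher. Kera alone had groups that did not overlap in that comparison, against 9.6% of all tested genes on the lower side. Without replicate 2 of the 2-m muscles 6 genes were called lower in it, without replicate 3 of the 28-m muscles 4, and without replicate 1 or 3 of the 2-m muscles, or without all libraries numbered 3, only Kera.

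**Figure D2:**
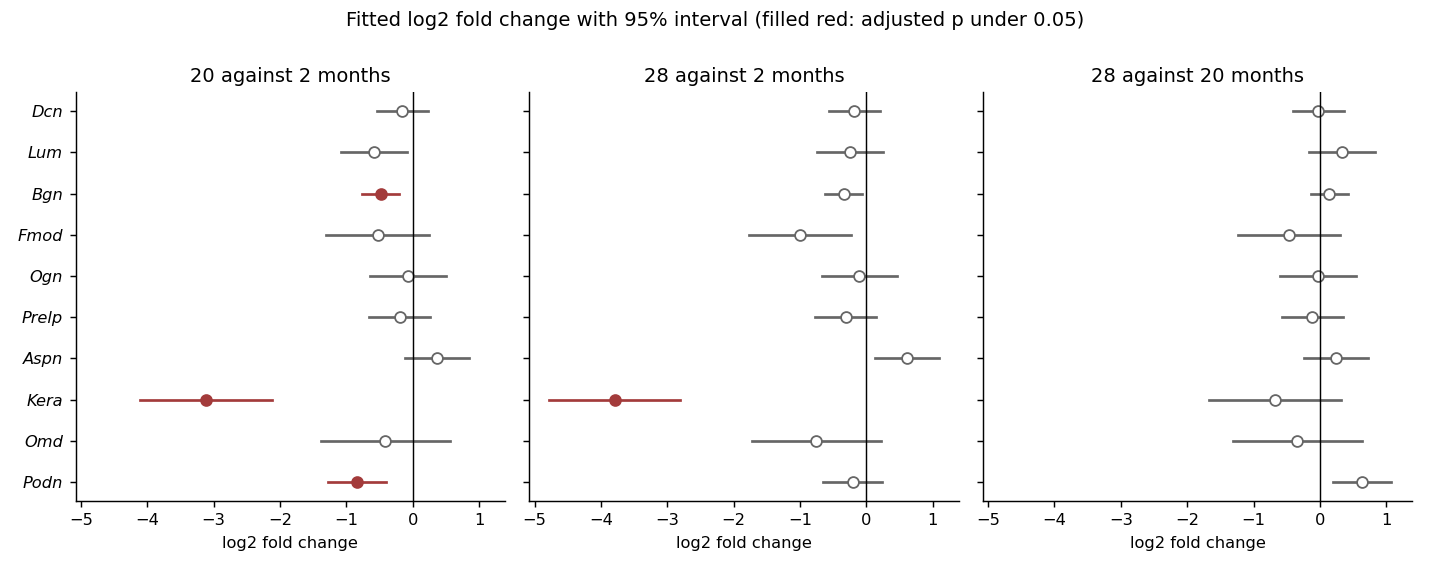
Fitted log2 fold change on the log2(normalized count + 1) scale (horizontal axis) of each gene (vertical axis), with 95% intervals as lines, for the 3 pairs of ages. Filled red points have an adjusted p under 0.05: Bgn, Kera and Podn in 20-m against 2-m muscles, Kera in 28-m against 2-m muscles, and none between 28-m and 20-m muscles.

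Kera encodes keratocan, a keratan sulfate proteoglycan best known from the corneal stroma and also found in tendon. The 2-m libraries had 1088, 409 and 1395 normalized counts. The 20-m libraries had 87.8, 84.4 and 125, and the 28-m libraries 43.6, 40.1 and 126. Every later library was thus under the lowest 2-m library, and replicate 2 of the 2-m muscles was the nearest to them. Means were 963.8 ± 504.5 for the 2-m, 99.2 ± 22.7 for the 20-m and 70.0 ± 48.9 for the 28-m libraries (SD, n = 3). The log2 fold change was -3.12 (SE 0.46, adjusted p = 0.000812, 8.66-fold lower) in 20-m and -3.79 (adjusted p = 0.000204, 13.9-fold lower) in 28-m muscles. Between 28-m and 20-m muscles it was -0.68, with a 95% interval from -1.67 to 0.31 (adjusted p = 0.651). In a two-sided exact permutation test of the 6 later against the 3 young libraries the p was 0.0119, the smallest that design can give. All 22 alternatives to each fit against 2-m muscles kept the call, with log2 fold changes from -3.64 to -2.76 in 20-m and from -4.32 to -3.44 in 28-m muscles. Without the libraries numbered 3 the values were -2.94 (adjusted p = 0.00313) and -3.96 (adjusted p = 0.000792). Of the summed counts of the 10 genes, Kera took 1.60 to 2.54% in the 2-m libraries and 0.146 to 0.374% in the later ones.

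Podn encodes podocan, a secreted leucine-rich glycoprotein known from smooth muscle and kidney. Its 2-m libraries had 321, 441 and 402 normalized counts, its 20-m libraries 161, 255 and 241, and its 28-m libraries 298, 294 and 423. The 20-m libraries were the lowest and overlapped neither of the other ages, while the 28-m libraries overlapped the 2-m libraries. In 20-m against 2-m muscles Podn fell by 0.84 on the log2 scale (SE 0.20, adjusted p = 0.0155). It was -0.21 in 28-m against 2-m muscles (95% interval -0.65 to 0.24, adjusted p = 0.557). From 20-m to 28-m muscles it was 0.63, with an unadjusted p of 0.00874 in limma that did not pass adjustment (adjusted p = 0.277, 28-m higher in 3 of 3 libraries). The call in 20-m muscles was lost without replicate 1 of that age (log2 fold change -0.63, adjusted p = 0.0707), without the libraries numbered 3 (-0.89, adjusted p = 0.0539) and with the libraries rescaled to the same sum (adjusted p = 0.111). The difference between 20-m and 28-m muscles was not past the threshold in any of its 22 alternatives, whose adjusted p ran from 0.0844 to 1.

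Bgn encodes biglycan, the close relative of decorin with chondroitin or dermatan sulfate chains. The 2-m libraries had 4313, 3253 and 4680 normalized counts, the 20-m libraries 3191, 2664 and 2818, and the 28-m libraries 2827, 3178 and 3578. All 20-m libraries were under the lowest 2-m library, and the 28-m libraries overlapped it. Bgn had a log2 fold change of -0.48 (SE 0.13, adjusted p = 0.0246) in 20-m and -0.34 (adjusted p = 0.103) in 28-m muscles. Over both later ages it was -0.41 (adjusted p = 0.0218, exact permutation p = 0.0238 for 3 against 6 libraries). The 20-m call was kept in 16 of 22 alternatives. It was lost without replicate 1 (adjusted p = 0.0857) or replicate 3 (0.0813) of the 2-m muscles, without replicate 2 (0.0963) or 3 (0.0626) of the 20-m muscles, without the libraries numbered 3 (0.142) and under rescaling to the same sum (0.303). The size stayed between -0.64 and -0.36 in these fits.

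Decorin, the most abundant of the group, was not called by limma on all libraries in any comparison. Dcn had 16293, 11248 and 19989 normalized counts in the 2-m libraries, 13413, 13324 and 14828 in the 20-m libraries and 12437, 12022 and 16890 in the 28-m libraries. The 2-m libraries reached both above and below all later ones. Fitted log2 fold changes were -0.16 (95% interval -0.54 to 0.23) in 20-m and -0.18 (-0.56 to 0.20) in 28-m muscles. It turned to 0.03 and 0.01 without replicate 3 of the 2-m muscles. Without replicate 2 of the 2-m muscles, Dcn was called lower over both later ages together (-0.39, adjusted p = 0.0441, against -0.17 with all libraries). Dcn made up 34.3 to 44.0% of the summed counts of the 10 genes in the 2-m libraries and 41.2 to 46.7% in the later ones. Asporin, the third class I gene, which binds collagen and TGF-β, was the only one with log2 fold changes above 0 against 2-m muscles. Aspn had 642, 661 and 875 normalized counts in the 2-m, 1031, 710 and 1092 in the 20-m and 1123, 780 and 1531 in the 28-m libraries, and replicate 2 of each later age overlapped the 2-m range. The values were 0.37 (adjusted p = 0.283) in 20-m and 0.62 (95% interval 0.13 to 1.10, adjusted p = 0.0875) in 28-m muscles. The 28-m value was called by DESeq2 (0.65, adjusted p = 0.0241), with a term for the libraries numbered 3 (0.62, adjusted p = 0.0171) and without replicate 2 of the 28-m muscles (0.87, adjusted p = 0.025).

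Fibromodulin, which binds collagen fibrils and is abundant in tendon, had the widest spread among 2-m libraries. Fmod had 17858, 5209 and 18678 normalized counts in the 2-m libraries, 9206, 7556 and 8297 in the 20-m libraries and 5002, 6302 and 6896 in the 28-m libraries. Replicate 2 of the 2-m muscles lay within the 28-m range, and the other two lay above every later library. The log2 fold change was -0.53 (SE 0.36, adjusted p = 0.337) in 20-m and -0.999 (adjusted p = 0.0841) in 28-m muscles. Without replicate 2 of the 2-m muscles it was -1.13 (adjusted p = 7.56e-05) and -1.60 (adjusted p = 4.13e-06). Without any other single library it was not called, so in limma with age as the sole term the call turned on 1 library. With all libraries, edgeR called it in 28-m muscles (-1.20, adjusted p = 0.0365), as did limma with the replicate number as a block. Prelp, whose protein anchors basement membranes to connective tissue, showed the same low library, with 3985, 2058 and 4352 normalized counts in the 2-m, 3082, 2607 and 2949 in the 20-m and 2429, 2585 and 2982 in the 28-m libraries. Its log2 fold changes of -0.20 (adjusted p = 0.563) and -0.31 (adjusted p = 0.371) became -0.54 (adjusted p = 0.00503) and -0.65 (adjusted p = 0.00144) without replicate 2 of the 2-m muscles.

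Lumican, a keratan sulfate proteoglycan of collagen-rich tissues, overlapped between all ages. Lum had 1253, 941 and 1698 normalized counts in the 2-m, 717, 854 and 970 in the 20-m and 953, 819 and 1516 in the 28-m libraries. Its log2 fold change in 20-m muscles was -0.58 (unadjusted p = 0.0248 and adjusted p = 0.101 in limma), and among single libraries left out it was called only without replicate 2 of the 2-m muscles (-0.79, adjusted p = 0.0293). With a term for the libraries numbered 3 the same -0.58 was called (adjusted p = 0.00868). In 28-m muscles it was -0.25 (adjusted p = 0.512). Osteoglycin, also called mimecan, was the member nearest to 0, with 1645, 1283 and 2805 normalized counts in the 2-m, 1597, 1535 and 2077 in the 20-m and 1474, 1320 and 2446 in the 28-m libraries. The Ogn log2 fold changes were -0.07 (95% interval -0.64 to 0.50) and -0.10 (-0.68 to 0.47), and their sign turned without replicate 3 of the 2-m muscles (0.24 and 0.21). Osteomodulin, a keratan sulfate proteoglycan of bone, was the lowest member. Omd had 103, 47.6 and 113 normalized counts in the 2-m, 69.1, 45.6 and 73.6 in the 20-m and 22.8, 64.9 and 75.5 in the 28-m libraries, with overlap between all ages. Its log2 fold changes were -0.41 (adjusted p = 0.571) and -0.75 (adjusted p = 0.303), with 95% intervals from -1.39 to 0.57 and from -1.73 to 0.22.

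Some markers of tendon fell with age, and their sum was low in the same 2-m library. The 7 tendon markers (Tnmd, Scx, Mkx, Thbs4, Comp, Cilp2 and Col22a1, members left out) were detected in the muscle, none at 0 in all libraries, and all 7 were tested. Their summed level was 19307, 9253 and 18405 normalized counts in the 2-m libraries, 10629, 8615 and 9693 in the 20-m libraries and 6494, 6965 and 8159 in the 28-m libraries, so that the 20-m range overlapped the 2-m range and the 28-m range did not. Thbs4, thrombospondin 4, made up 62.1 to 73.8% of the sum. In 20-m muscles 2 of the 7 fell (median log2 fold change -0.57) and in 28-m muscles 4 of 7 fell (median -0.93), and without replicate 2 of the 2-m muscles 6 of 7 fell at either age. DESeq2 called 4 of 7 lower in 20-m muscles. Of all tested genes limma called 7.13% lower in 20-m and 6.24% in 28-m muscles. Cilp2, a cartilage intermediate layer protein gene, had the smallest adjusted p, with means of 1391 in 2-m and 209.8 in 20-m muscles (log2 fold change -2.50, SE 0.40, adjusted p = 0.00132). How far tendon content entered the members' values was not tested, and each member was only divided by this sum.

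Divided by the tendon sum of its library, Kera was still lower. The division moves the difference of every member up by nearly the same amount, since the sum itself was lower in the later libraries. A shift of that size could not have reversed Kera, so its direction here is no separate support. It had 56.3, 44.2 and 75.8 counts per 1000 tendon marker counts in the 2-m libraries, 8.26, 9.79 and 12.9 in the 20-m libraries and 6.72, 5.75 and 15.5 in the 28-m libraries. The groups did not overlap, and the difference of the 6 later from the 3 young libraries was -2.63 on the log2 scale (two-sided exact permutation p = 0.0119), against -3.45 undivided. Fmod had 925.0, 562.9 and 1015 counts per 1000 in the 2-m, 866.1, 877.0 and 856 in the 20-m and 770.3, 904.8 and 845 in the 28-m libraries, a difference of 0.08 (exact permutation p = 0.774), or 0.33 (exact permutation p = 0.0238) with Thbs4 left out of the sum. Relative to the tendon sum, Aspn (1.33), Prelp (0.59) and Dcn (0.67) were higher in the later libraries, each with an exact permutation p of 0.0119. So was Ogn (0.75, exact permutation p = 0.0357). Undivided, the differences were 0.49, -0.25, -0.17 and -0.09 in that order (exact permutation p = 0.119, 0.298, 0.44 and 0.738). The divided values thus hold the fall of the sum as well as any change of the gene. With Kera these are 5 genes with a p under 0.05, against 2 (Kera and Bgn) before division. The p-values of these 10 tests are not adjusted, and the division was added after the values had been seen. The shift common to all members turned the sign of Bgn (from -0.41 to 0.43, exact permutation p = 0.107), Lum (from -0.42 to 0.42), Podn (from -0.52 to 0.32) and Omd (from -0.58 to 0.25). It also turned Fmod, Dcn, Prelp and Ogn, so these changes of sign follow from the lower sum. With Thbs4 left out of the sum Kera was still lower (-2.37, exact permutation p = 0.0119).

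**Figure D3:**
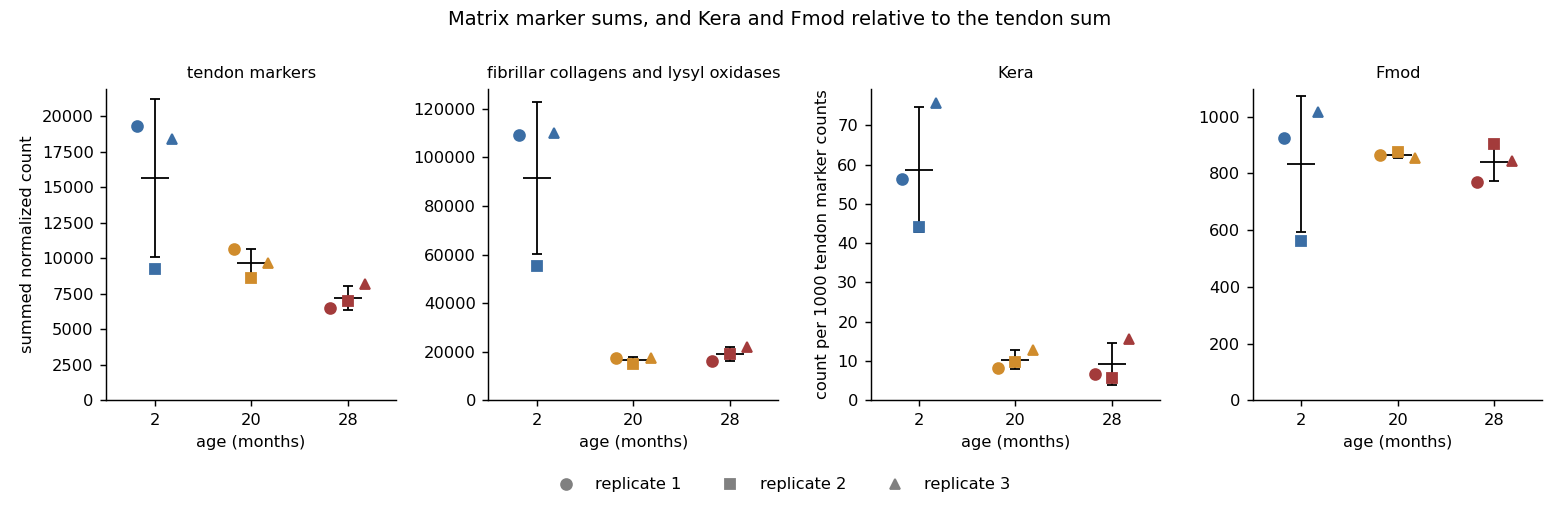
Summed normalized counts of the 7 tendon markers and of the 16 collagen and lysyl oxidase genes (left panels), and Kera and Fmod as counts per 1000 tendon marker counts (right panels), by age in months, with 1 point per library and the mean ± SD of 3 libraries as bars. Kera stays under 16 per 1000 in all later libraries against at least 44.2 in the 2-m libraries, while the later Fmod points lie within the 2-m range.

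Some fibroblast markers fell with age and 1 rose. Their summed level (14 genes, all tested, none at 0) was 59652, 48701 and 68161 normalized counts in the 2-m, 44828, 39573 and 42769 in the 20-m and 42490, 47445 and 53078 in the 28-m libraries, the last of which overlapped the 2-m range. In 20-m muscles 6 fell and 1 rose (median log2 fold change -0.43), led by Dpt, which encodes the decorin-binding protein dermatopontin (-0.997, SE 0.0992, adjusted p = 5.40e-05), while Cd55 rose (0.60, adjusted p = 0.0171), a call lost without replicate 1 of the 2-m or replicate 3 of the 20-m muscles. In 28-m muscles 3 fell (6 without replicate 2 of the 2-m muscles) and 1 rose. Of all tested genes 7.13% were called lower and 9.42% higher in 20-m muscles, and 6.24% and 7.53% in 28-m muscles. Other settings moved these counts, as 10 fell in 20-m and 5 in 28-m muscles with a term for the libraries numbered 3, and 2 and 1 under rescaling to the same sum. Divided by this sum, Kera was lower (-3.09 on the log2 scale) and Aspn higher (0.87) in the later libraries, each with an exact permutation p of 0.0119 and groups that did not overlap. Undivided, the differences were -3.45 and 0.49, since this division too moves every member up by nearly the same amount. Bgn held 66.8 to 72.3 counts per 1000 fibroblast marker counts in 2-m, 65.9 to 71.2 in 20-m and 66.5 to 67.4 in 28-m muscles, a difference of -0.04 (exact permutation p = 0.31). Gsn, gelsolin, made up 60.0 to 66.6% of that sum, so this is largely a ratio of Bgn to Gsn, and with Gsn left out the difference was -0.11 (exact permutation p = 0.25).

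Most collagens that these proteoglycans bind fell with age. Of 16 fibrillar, type VI and fibril-associated collagen and lysyl oxidase genes, 14 fell in 20-m muscles (median log2 fold change -1.44) and 12 in 28-m muscles (median -1.25), and none rose. Of all tested genes 7.13% and 6.24% were called lower. Without single libraries the counts were 12 to 16 and 11 to 14, and over the other alternatives 11 to 15 and 11 to 14. Their summed level was 109423, 55369 and 109964 normalized counts in the 2-m libraries, and between 15018 and 21925 in the 6 later libraries. Col3a1, a fibrillar collagen of soft tissue, had the smallest adjusted p, with means of 12479, 1964 and 2758 normalized counts at the 3 ages (20-m against 2-m: -2.65, SE 0.16, adjusted p = 2.65e-06). The summed level of the 10 proteoglycan genes ran from 25549 to 54986 in the 2-m and from 26610 to 36464 in the later libraries, which overlapped.

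Few of the close relatives and chain-building enzymes were called. Of all tested genes 7.13% were called lower and 9.42% higher in 20-m muscles, and 6.24% and 7.53% in 28-m muscles. The enzyme counts with all libraries did not exceed these shares. Of 8 close relatives (Ecm2, Epyc, Optc, Podnl1, Chad, Chadl, Nyx and Tsku) 4 passed the filter on low values and none was called by limma on all libraries. Chad, chondroadherin, had the highest mean over the 9 libraries, through replicates 1 and 3 of the 2-m muscles, while Ecm2 was higher than Chad in 20-m and 28-m muscles (means of 745.9 against 682.2 and 846.3 against 477.6). The log2 fold change of Chad was -0.79 in 20-m (adjusted p = 0.372) and -1.32 in 28-m muscles (adjusted p = 0.152). Without replicate 2 of the 2-m muscles 1 relative was called lower in each, as was 1 in 28-m muscles by edgeR. Of 25 tested enzymes that build or sulfate the sugar chains, 1 fell in 20-m muscles (Chpf, a chondroitin polymerizing factor, -0.84, adjusted p = 0.0148) and 1 in 28-m muscles, with medians of -0.13 and -0.16. Leaving out 1 library gave 0 to 2 lower in either, and Chpf lost its call without replicate 1 of the 20-m muscles. Of 16 tested growth factors and receptors that the proteoglycans bind, 5 rose in 20-m muscles and 2 in 28-m muscles, and none fell. Tlr4, the receptor that biglycan engages, had means of 158.9, 350.7 and 474.8 normalized counts at the 3 ages (20-m: 1.17, SE 0.22, adjusted p = 0.00354). With 1 library left out the count in 20-m muscles was 1 to 4, and it was 1 without replicate 2 of the 2-m muscles or replicate 1 or 2 of the 20-m muscles. The count in 28-m muscles was 1 without replicate 2 or 3 of the 2-m or replicate 1 or 3 of the 28-m muscles, and 1 gene was called lower there without replicate 2 of the 2-m muscles. Of 14 tested proteases and inhibitors, 5 fell and 1 rose in 20-m muscles. Bmp1, the protease that trims the propeptides of several of these proteoglycans, fell (-0.92, SE 0.13, adjusted p = 0.000703), and the inhibitor Timp4 rose (0.82, adjusted p = 0.0163), a call lost without replicate 1 of the 2-m or replicate 3 of the 20-m muscles. Without 1 library the number that fell was 2 to 5, the 2 arising without replicate 1 of the 2-m muscles or any 1 of the 20-m muscles. Over the other alternatives 2 to 6 proteases and inhibitors fell and 1 to 5 growth factors and receptors rose in 20-m muscles, where 0 to 2 enzymes were called in either direction.

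Among markers of other cells, in 20-m against 2-m muscles, 4 of 5 adipocyte genes fell (Cfd, adipsin, -2.58, adjusted p = 0.000333), 2 of 5 tested macrophage genes (C1qb, -0.61, adjusted p = 0.0171), 1 of 10 tested bone and cartilage genes (Col2a1, -5.01, adjusted p = 0.00469) and 1 of 6 tested marrow genes (Mpo, listed at 0 in every later library, adjusted p = 0.0324). With 1 library left out, the count was 1 to 4 for adipocyte genes (1 without replicate 1 of the 2-m muscles or replicate 1 or 2 of the 20-m muscles), 0 to 3 for macrophage genes (moved by replicates 1 and 3 of the 2-m and all of the 20-m muscles), 0 or 1 for marrow genes and 1 or 2 for bone and cartilage genes. Over the other alternatives it was 2 to 4 for adipocyte, 0 to 2 for macrophage, 0 to 4 for marrow and 1 to 4 for bone and cartilage genes, with the 4 of the last 2 lists called by edgeR. In 28-m muscles 2 adipocyte, 2 bone and cartilage and 1 marrow gene were called lower and no macrophage gene, with ranges over those alternatives of 0 to 2, 0 to 6, 0 to 4 and 0. With 1 library left out the ranges were 0 to 3, 0 to 4, 0 to 2 and 0 to 1 in the same order. Of all tested genes 7.13% were called lower in 20-m and 6.24% in 28-m muscles. The most abundant muscle fibre and endothelial markers, Myh4 (adjusted p = 0.999) and Cdh5 (-0.22, adjusted p = 0.175), were not called in 20-m muscles, nor was any other gene of their lists by limma on all libraries. In 28-m muscles 2 of 8 muscle fibre genes were called lower, Actn3 (-0.52, adjusted p = 0.0425) and Tnnc2 (-0.52, adjusted p = 0.0492), which are named after their values were seen, with 0 to 5 called over the alternatives, and no endothelial gene was called. The bone and cartilage sum was 2915 normalized counts in replicate 1 of the 2-m muscles and 478 to 763 elsewhere, and Omd, a bone proteoglycan, was at 103 there and at 113 in replicate 3. The part of these cells in the members' values was not tested.

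Over the 9 libraries, the genes most like the 4 most abundant members were ranked by Pearson r of the log2 values, as a description, since libraries share age and replicate number. For Dcn they were Abi3bp (r = 0.99), Boc (0.96) and Ube2a (0.96). For Bgn they were Gsn (r = 0.995), Adora1 (0.98) and Tpst1 (0.97). For Fmod they were Chad (r = 0.99), Lox (0.98) and Cpxm2 (0.96), and for Prelp Chad (r = 0.96), Pus7l (0.96) and Arxes2 (0.95). Chad thus appeared for both neighbours on chromosome 1.

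Methylated DNA at the promoters was read from MBD-seq as the mean normalized count of the 4 bins of 500 bp around the transcription start. The labels list a first and a repeated capture of the muscle DNA, and the muscle columns do not say whether they hold either or both. With 1 column per age there is no test, and the intervals cover counting error only. They take every count as independent. Reads were paired and the bins adjoin, so 1 fragment may have been counted more than once. The intervals would then be too narrow even for counting error, and their place above or below 0 is a description. Kera had 6.37, 13.7 and 13.1 at the 3 ages in muscle, from 28, 65 and 82 reads. Its log2 ratio to 2-m muscle was 0.99 in 20-m (95% exact binomial interval 0.44 to 1.80) and 0.93 in 28-m muscle (0.40 to 1.71). With bins within 2000 bp the 28-m ratio was 0.24 (-0.05 to 0.57), and with bins within 500 bp it was 1.85. Aspn had 1.37, 5.47 and 10.99, from 6, 26 and 69 reads, a log2 ratio of 2.34 in 28-m muscle (1.82 to 4.51). Its RNA overlapped between the ages and was not called by limma on all libraries with age as the sole term. Some other fits called it higher in 28-m muscles. Dcn had 2.27, 2.53 and 7.81 (1.43 in 28-m muscle, 0.78 to 2.93). Ogn had 17.3, 13.7 and 9.40, and was the only member whose interval lay below 0 in 28-m muscle (-0.81, -1.39 to -0.37). This did not hold with the columns rescaled to the same sum (-0.41, -0.95 to 0.08) or with bins within 2000 bp (-0.21, -0.63 to 0.17). The Aspn and Dcn intervals lay above 0 under both of these.

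Of the 10 promoters, 7 were higher in 20-m and 8 in 28-m than in 2-m muscle, where 43.4% and 69.7% of 12324 promoters of tested genes were. The median log2 ratio of the 10 was 0.13 and 0.47, against -0.08 and 0.46 over all those promoters. The 28-m column summed to less than the 2-m column, and rescaling to the same sum would add 0.44 to the 28-m log2 ratios in muscle, before the added 1 of the log scale. Bgn (0.06 and 0.25) and Podn (-0.27 and 0.41), whose RNA fell in 20-m muscles, had intervals that included 0 at both ages, but these depended on the setting. In 28-m muscle both lay above 0 after rescaling to the same sum (0.68, 0.07 to 1.42, and 0.85, 0.34 to 1.48). Bgn also lay above 0 there with bins within 2000 bp (0.60, 0.15 to 1.30) and Podn with bins within 500 bp (1.99, 0.69 to 8.79). In 20-m muscle Podn lay below 0 with bins within 2000 bp (-0.30, -0.62 to -0.0066). In T cells the Kera promoter had 6.85, 5.78 and 4.30 normalized counts per bin at the 3 ages. Its log2 ratio in 28-m T cells was -0.57 (-1.75 to 0.33).

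**Figure D4:**
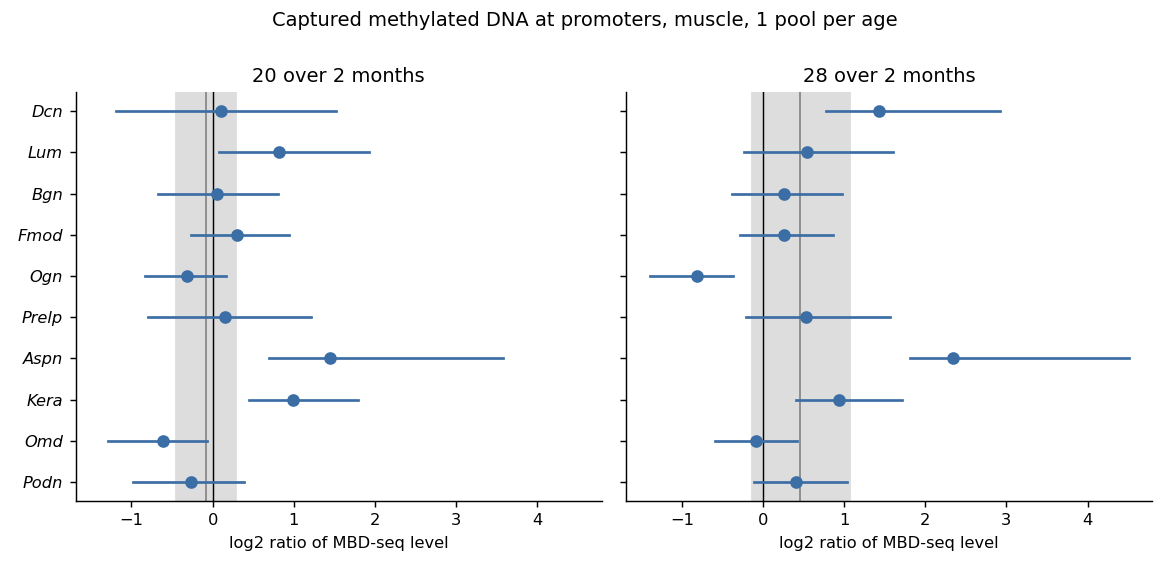
Log2 ratio of the MBD-seq level at each promoter in muscle (horizontal axis) for 20 over 2 and 28 over 2 months, with 1 column of pooled DNA per age. Lines are 95% exact binomial intervals for counting error, with every count taken as independent. The grey band runs from the lower to the upper quartile of 12324 promoters and the grey line their median, -0.08 and 0.46, and Aspn lies farthest to the right and Ogn farthest to the left at 28 months.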

How the data were processed

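RNA-seq covered the hindlimb muscle of 3 mice at each age, and MBD-seq the pooled DNA of the same mice. Per the methods and labels, the authors trimmed reads with Trim Galore and aligned them to mm10, with Bowtie2 for MBD-seq and Hisat2 for RNA-seq (the labels' tool list names TopHat). They counted reads with htseq-count over refSeq genes and with bedtools over 500-bp bins. What they deposited is the signal left after dividing each library by its DESeq2 size factor. The reads were recovered from these values, all of which (100%) lay within 0.001 reads of a whole number. The 5 rows without a gene, 37.9 to 47.7% of the column sums, were left out. Genes with few reads, such as Omd (12 to 156 per library), are measured less precisely.

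One limma-trend model (limma 3.58.1, R 4.3.3) held the 9 libraries, on log2(normalized count + 1), a scale that understates fold changes of low genes. Age was its sole term, the 13178 genes averaging 10 or more were tested, and Benjamini-Hochberg adjustment ran over all of them with a threshold of 0.05. Contrasts were 20 against 2, 28 against 2, 28 against 20, and both later ages against 2 months. Exact permutation tests, two-sided, were run for single members, and can reach 0.0119 for 3 against 6 libraries and 0.1 for 3 against 3. Between genes, levels were divided by RefSeq transcript length. MBD-seq levels were means over bins within 1000 bp of the start, compared as log2 of the level plus 1. Exact binomial intervals were computed without the added 1 and took every count as independent. The labels list a first and a repeated muscle capture, and which of them (or both) the muscle columns hold is not given in the sources used here.

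The members and gene lists were chosen with earlier results of these data known. By rule the text names all members, from each list the gene with the smallest adjusted p among those called in each direction (20 against 2 and 28 against 20 months) or else the most abundant, and the 3 genes most like each of the 4 most abundant members. The alternatives varied the pseudocount (0.1, 5) and the filter (none, 50), used equal sums or quantiles for scaling, added a replicate block or a term for libraries numbered 3, restricted the fit to the libraries compared, left out each library, or applied edgeR 4.0.16 or DESeq2 1.42.0 to the reads. For MBD-seq they were windows of 500 and 2000 bp, a pseudocount of 0.25 and equal sums. Added after seeing the data were equal sums without Rn45s, leaving out the libraries numbered 3, exact tests without single libraries, and division by tendon or fibroblast sums, with and without the most abundant marker. The result of 1 marker list is not reported here. All fits were tested on simulated counts.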

Additional observations from a re-analysis of the deposited data

How the results depend on the processing

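Kera kept its call against 2-m muscles under every alternative tried. For the other members the count of calls moved. So did the calls over all tested genes, and the counts below are not set beside the share of each setting. Members called lower in 20-m against 2-m muscles numbered 3, and 1 when rescaled to the same sum or without the libraries numbered 3, with a range of 2 to 6 when each library was left out. In 28-m against 2-m muscles 1 was called lower (edgeR 2, range 1 to 4 without single libraries) and 0 higher, but 1 (Aspn) with a batch term for the libraries numbered 3 or with DESeq2 (range 0 to 1 without single libraries). With both later ages together 2 were called lower, against 1 when rescaled to the same sum or without the libraries numbered 3, 4 with the batch term and 4 with edgeR (range 1 to 6 without single libraries), and 0 higher, against 1 with the batch term or DESeq2 (range 0 to 1 without single libraries). Members with an exact p under 0.05 numbered 2, with a range of 1 to 4 without single libraries. They numbered 5 after division by the tendon sum, which shifts all members alike, and 6 with its most abundant marker left out. Of the 9 pairs of libraries with equal numbers, the correlation of deviations from the age mean was above 0.1 for the 3 pairs numbered 3 (0.109, 0.150 and 0.161) and from -0.0401 to 0.0998 for the others, and 6 of 9 libraries correlated best with their own number. The libraries numbered 3 thus went together, but the numbers as a whole were not taken to pair the samples, and the labels name no shared litter or day. With the replicate number as a block, 4 members were lower in 20-m muscles (Lum added, adjusted p = 0.00822), 3 lower (Bgn, Fmod and Kera) and 1 higher (Aspn) in 28-m muscles, 5 lower and 1 higher with both later ages together, and 74 and 64 genes of all tested were called lower and higher between 28-m and 20-m muscles against 22 and 28, where DESeq2 called 105 and 123.

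In the limma, edgeR and DESeq2 fits, the members whose sign turned were Dcn, Ogn, Prelp and Omd. Division by the tendon sum moved all members up by nearly the same amount. It thus turned every member but Kera and Aspn, which is no measure of how stable each member was. In 20-m against 2-m muscles, leaving out single libraries gave log2 fold changes of -0.38 to 0.0317 for Dcn, -0.32 to 0.24 for Ogn and -0.54 to 0.0041 for Prelp, and Ogn was 0.11 without the libraries numbered 3. In 28-m against 2-m muscles they ran from -0.41 to 0.0085 for Dcn and from -0.37 to 0.21 for Ogn. In 28-m against 20-m muscles they ran from -0.18 to 0.0667 for Dcn, from -0.30 to 0.14 for Ogn and from -0.66 to 0.19 for Omd. There Dcn was 0.0005 rescaled to the same sum, 0.0581 with Rn45s left out of that sum and 0.0979 with quantile normalization, and Ogn 0.0489 with Rn45s left out of the sum and 0.0088 with DESeq2. With both later ages together they ran from -0.39 to 0.0201 for Dcn and from -0.34 to 0.23 for Ogn, which was 0.0251 without the libraries numbered 3. The cause was not tested. Rescaling to the same sum lowered the calls over all genes in 20-m against 2-m muscles to 232 lower and 354 higher, from 939 and 1242.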
